A study of Mus musculus with 28 samples.

Results

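The genes described here are 8 genes of iron, heme and metal handling in mouse lung adenocarcinoma cells. They are heme oxygenase 1 (Hmox1), the transferrin receptor (Tfrc), the ferritin heavy and light chains (Fth1 and Ftl1), ferroportin (Slc40a1), the ferritin cargo receptor Ncoa4 and the metallothioneins Mt1 and Mt2. They were 8 of 21896 protein-coding entries of the mouse annotation (RefSeq, GRCm38.p6, the release that matches mm10). Peaks of the histone marks H3K27ac and H3K9ac, measured by chromatin immunoprecipitation and sequencing, were merged over the 12 libraries of a mark wherever they overlapped by 1 base or more. Regions that touched one of the 8 gene bodies extended by 1 kb were taken. This gave 10 of 32703 H3K27ac regions and 10 of 20543 H3K9ac regions, and each of the 8 genes had at least 1 region of each mark.

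Each mark was measured in 4 groups of cells, with 3 biological replicates in each per the labels. Res_shFabp7 cells were resistant cells with a hairpin knockdown of Fabp7, a fatty acid binding protein, and Res_Ctrl cells were their controls. Res cells were wild-type cells resistant to PD-1 blockade that the labels describe as treated with PD-1 inhibitors, and Sen cells were wild-type cells sensitive to it. All cells were kept in culture in RPMI-1640 medium, and the labels name no single clone. The p-values below measure the spread between these cultures.

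Iron enters most cells as transferrin bound to its receptor, is stored in ferritin shells of heavy and light chains, and leaves through ferroportin. Ncoa4 carries ferritin to the lysosome, where its iron is released, and heme oxygenase 1 frees iron from heme. Metallothioneins are small cysteine-rich proteins that bind zinc and copper and are induced by metals through the factor MTF1. Iron promotes the lipid peroxidation of ferroptosis, the form of cell death that the series title names. Both marks lie on the promoters of active genes, and H3K27ac also on active enhancers. Ferritin, Tfrc and ferroportin are in large part controlled after transcription, through iron-responsive elements of their messenger RNAs, which histone marks do not report.

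The promoters of the metallothioneins are shown because Mt2 carried the largest called change of the members in the knockdown comparison. The windows are from RefSeq (GRCm38.p6), run from 250 bases before to 50 bases after the start site and are written 5′ to 3′ on the plus strand. Capitals mark matches to the metal response element core (TGCACNC or TGCGCNC) and to the antioxidant response element core (TGACNNNGC), each searched on both strands. In the Mt2 window TGACTCAGC is the antioxidant match, and all other capitals are metal response matches.
Mt2, chr8:94172368-94172667: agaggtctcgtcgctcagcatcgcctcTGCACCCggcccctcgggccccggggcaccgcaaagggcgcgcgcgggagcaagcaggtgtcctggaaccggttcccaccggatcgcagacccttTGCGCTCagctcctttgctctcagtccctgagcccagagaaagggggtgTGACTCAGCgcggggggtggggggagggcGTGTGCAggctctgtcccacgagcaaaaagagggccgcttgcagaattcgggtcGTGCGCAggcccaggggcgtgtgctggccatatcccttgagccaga
Mt1, chr8:94178839-94179138: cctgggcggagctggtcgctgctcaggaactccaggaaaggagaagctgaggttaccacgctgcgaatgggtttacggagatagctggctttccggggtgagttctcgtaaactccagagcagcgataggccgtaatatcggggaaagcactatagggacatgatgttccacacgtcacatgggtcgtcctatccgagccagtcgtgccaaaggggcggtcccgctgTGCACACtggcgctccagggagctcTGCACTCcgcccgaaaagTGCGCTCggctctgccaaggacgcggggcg

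The Mt2 window held 4 metal response matches and 1 antioxidant match, and the Mt1 window held 3 metal response matches and 0 antioxidant matches. Of 32817 promoter windows in the table, 1.97% held at least 3 metal response matches, 0.518% at least 4, and 12.4% at least 1 antioxidant match. Peaks of either mark covered the whole of both windows in 12 of 12 libraries. The median peak summit lay 365.5 bases (H3K27ac) and 359.5 bases (H3K9ac) after the Mt2 start site, and 314 and 334.5 bases after the Mt1 start site. The printed Tfrc window below held 2 overlapping metal response matches, which read the same letters on both strands, and 7.12% of all windows held at least 2. Another window, at Ncoa4, held 1 match of each kind, and the windows of Fth1 and Ftl1 held 0 of either. A match describes these letters only.

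Knockdown of Fabp7 went with lower scaled tag counts at Mt2 in both marks, and at Mt1 in H3K9ac. Values below are tag counts in peaks scaled to library size (CPM, counts per M tags), with the trimmed mean of M-values (TMM) taken over regions that had a peak in all 12 libraries of the mark. The Mt2 region (H3K27ac, chr8:94171141-94174068) had 15.1, 18.1 and 18.4 CPM of H3K27ac in Res_shFabp7 libraries, against 46.5, 36.6 and 37.0 CPM in Res_Ctrl libraries. The highest knockdown library was below the lowest control library, and groups failed to overlap at 24.9% of tested regions. The change was -1.21 ± 0.19 (log2, SE, n = 3 each), a level 2.32 times higher in Res_Ctrl, and it passed edgeR's quasi-likelihood test (adjusted p = 0.0103). In this comparison 3.31% of the 16069 tested H3K27ac regions passed, 2.21% of them in the lower direction, and Mt2 was the only one of 9 tested member regions that did. Its absolute change was within the largest 0.286% of all tested regions. Without Res_shFabp7 replicate 2 the change of Mt2 was -1.25 with an edgeR adjusted p of 0.0520. Mt2 could not be tested with the calling limit at a p of 1e-10, since 2 of 3 libraries of each group then had a peak.

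In H3K9ac the Mt2 region (chr8:94171715-94174056) had 24.1, 29.5 and 32.9 CPM in Res_shFabp7 libraries, against 57.3, 49.4 and 50.9 CPM in Res_Ctrl libraries, and the groups again did not overlap, as at 29.1% of tested regions. This was a change of -0.85 ± 0.14 (edgeR adjusted p = 0.00283), a level 1.81 times higher in Res_Ctrl, among the largest 0.468% of changes. At the calling limit of 1e-10 Mt2 had an H3K9ac peak in 3 of 3 Res_shFabp7 libraries and in 1 of 3 Res_Ctrl libraries. This change could therefore not be tested there either. Unscaled H3K9ac tags at Mt2 overlapped, with 99, 174 and 163 in Res_shFabp7 libraries and 139, 142 and 199 in Res_Ctrl libraries. The deposited fold ratio was 5.31, 6.62 and 6.19 in Res_shFabp7 and 4.79, 4.27 and 5.72 in Res_Ctrl. Mt1, the next gene, had 85.2, 87.9 and 89.3 CPM of H3K9ac in Res_shFabp7 libraries, against 112, 140.2 and 114 CPM in Res_Ctrl libraries, a change of -0.48 ± 0.09 (edgeR adjusted p = 0.00546). Here 7.64% of the 11115 tested regions passed, 5.20% in the lower direction, against 2 of 7 tested member regions. Mt1 did not pass in H3K27ac, with 81.9, 70.1 and 66.5 CPM in Res_shFabp7 libraries and 91.6, 78.3 and 84.8 CPM in Res_Ctrl libraries (-0.23 ± 0.12, 95% interval -0.49 to 0.03, edgeR adjusted p = 0.327). The other tested members did not pass in either mark.

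**Figure D1:**
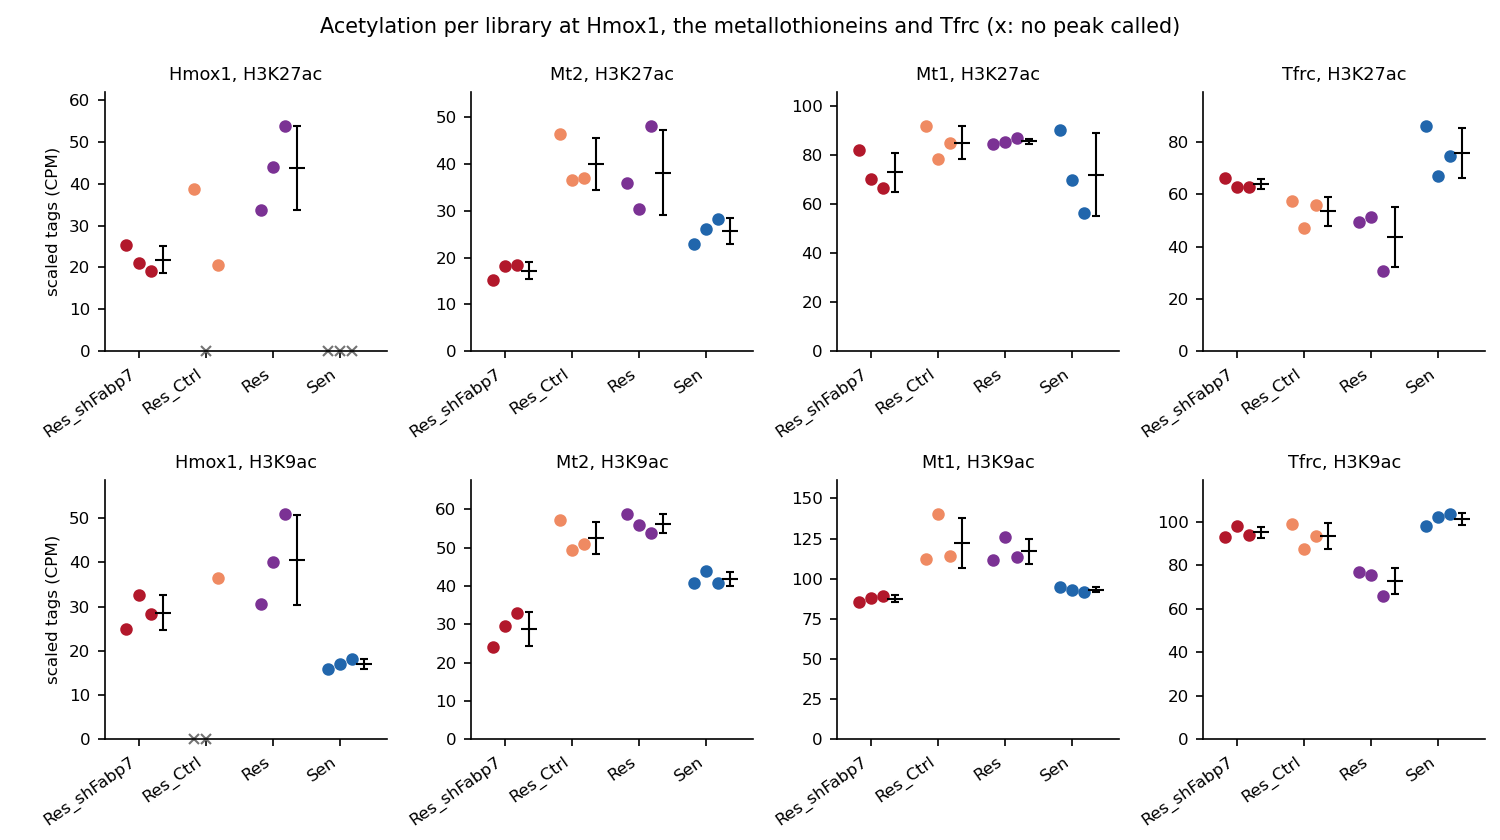
Scaled tags (CPM) in each library at the Hmox1, Mt2, Mt1 and Tfrc regions, H3K27ac above and H3K9ac below; points are libraries, a grey x is a library with no called peak, and the bar beside a group with 3 peaks is its mean ± SD. Mt2 is lowest in the 3 Res_shFabp7 libraries in both marks, Hmox1 has no H3K27ac peak in Sen, and Tfrc is lowest on average in Res.

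Called peaks can differ in length, so each library's tags were also set against the bases called. Mt2 peaks of H3K27ac covered 1673 ± 399 bases in Res_shFabp7 and 2069 ± 290 bases in Res_Ctrl (SD, n = 3 each), with 10.5 ± 1.6 and 19.5 ± 2.5 CPM per called kb. In H3K9ac the lengths were nearly alike, 1997 ± 179 bases in Res_shFabp7 and 2043 ± 136 bases in Res_Ctrl, with 14.4 ± 1.3 and 25.8 ± 3.3 CPM per called kb. Peaks in general were longer in the knockdown, with a geometric mean over the common regions of 3245 to 3743 bases in Res_shFabp7 and 2684 to 3091 bases in Res_Ctrl for H3K27ac, and of 2836 to 3088 and 2294 to 2823 bases for H3K9ac. The test per called base set each length against this mean of its library, and its changes are smaller than the ratios of CPM per kb. On this scale Mt2 changed by -0.66 in H3K27ac (edgeR adjusted p = 5.61e-05) and by -0.59 in H3K9ac (1.41e-05), and Mt1 by -0.24 in H3K9ac (0.0201). All 3 changes passed.

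The chromosome around the metallothioneins moved in the same direction. The median change of chromosome 8 was -0.21 in H3K27ac and -0.16 in H3K9ac, and that of the other tested regions within 2.5 Mb of Mt2 was -0.25 and -0.21. Of these neighbours 0 were called higher, and 6 of 44 were called lower in H3K27ac and 11 of 37 in H3K9ac, Mt1 among the 11. Mt2 lay below all 44 and all 37 of them, the lowest neighbour in both marks being Kifc3, which encodes a kinesin, at -0.81 and -0.68. With the local median taken off, Mt2 still changed by -0.96 in H3K27ac (edgeR adjusted p = 0.0361) and by -0.64 in H3K9ac (0.0184). Mt1 then changed by -0.27 in H3K9ac and did not pass (edgeR adjusted p = 0.0974).

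**Figure D2:**
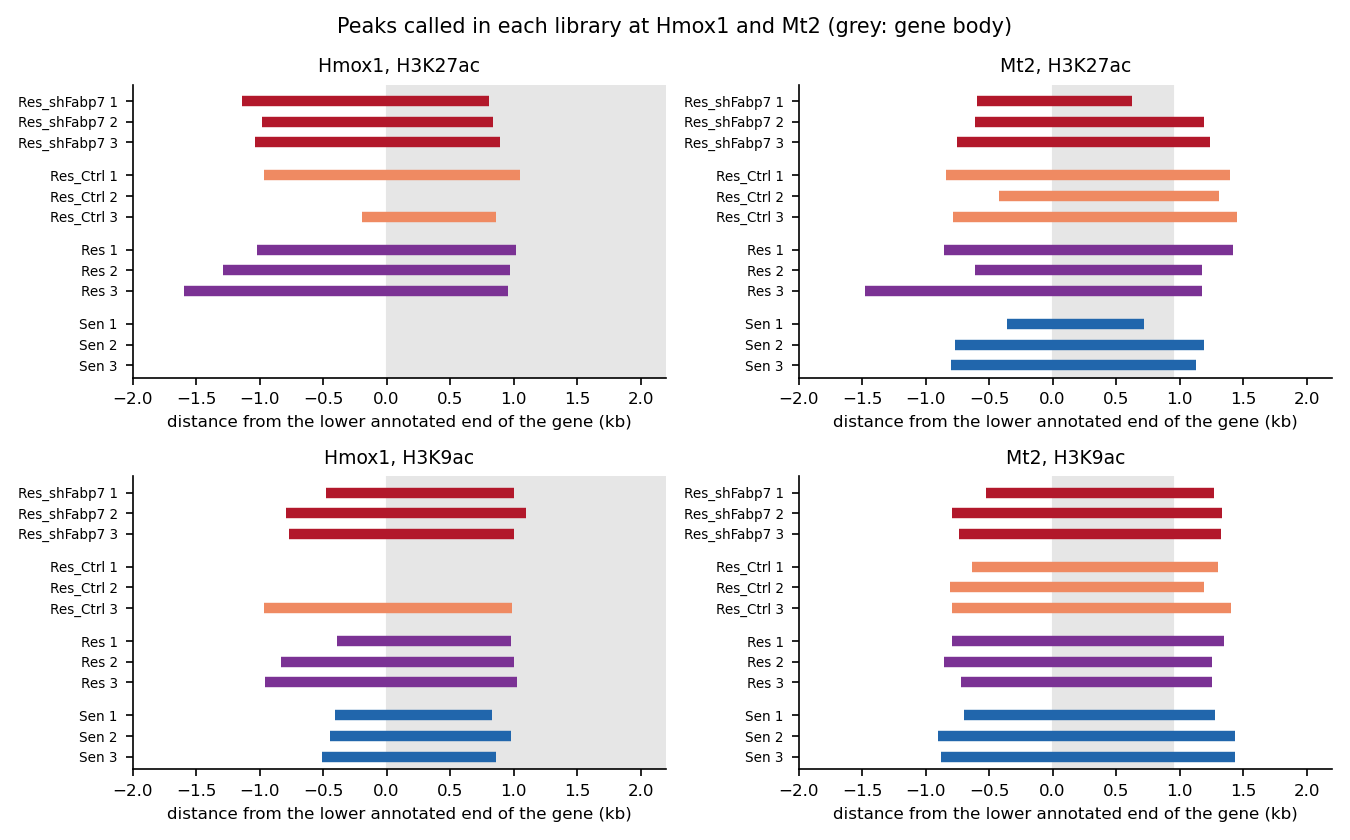
Extent of the peaks called in each library at Hmox1 (left) and Mt2 (right), H3K27ac above and H3K9ac below, in kb from the lower annotated end of the gene; the shaded area is the gene body. Mt2 has a peak in all 12 libraries of each mark, while Hmox1 has none in the 3 Sen libraries of H3K27ac.

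In resistant against sensitive cells H3K9ac was higher at both metallothioneins, and no H3K27ac change passed. H3K9ac at Mt2 was 58.7, 56.1 and 53.8 CPM in Res libraries, against 40.9, 44.0 and 40.9 CPM in Sen libraries (0.42 ± 0.10, edgeR adjusted p = 0.00353). At Mt1 it was 112, 126 and 113 CPM in Res libraries, against 94.7, 92.8 and 91.8 CPM in Sen libraries (0.33 ± 0.06, edgeR adjusted p = 0.00115). Neither pair of groups overlapped, as at 61.5% of tested regions, but change was widespread here, and 54.1% of the 11158 tested H3K9ac regions passed, 29.1% in the higher direction. Chromosome 8 had a median change of 0.32, and with it taken off Mt1 changed by 0.01 and Mt2 by 0.10, and neither passed (edgeR adjusted p = 0.888 and 0.470). Per called base Mt1 changed by 0.14 and did not pass (edgeR adjusted p = 0.105), and Mt2 by 0.23 and did (0.0128). In H3K27ac Mt2 had 36.0, 30.3 and 48.1 CPM in Res libraries and 22.8, 26.1 and 28.3 CPM in Sen libraries, a change of 0.55 ± 0.20 that did not pass (edgeR adjusted p = 0.0640). It passed without Res replicate 2 (0.69, edgeR adjusted p = 0.0478), with the replicate block (0.55, 0.0443) and with all 12 libraries in 1 fit (0.55, 0.0286). Mt1 had 84.4, 85.1 and 86.7 CPM of H3K27ac in Res libraries and 89.9, 69.6 and 56.2 CPM in Sen libraries, a change of 0.26 ± 0.16 that did not pass (edgeR adjusted p = 0.249). It passed without Sen replicate 1 (0.44, edgeR adjusted p = 0.0246), and with the chromosome median taken off it was -0.072.

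Between Res_Ctrl and Res cells no change at the metallothioneins passed. The change of Mt2 in Res_Ctrl against Res was 0.07 (95% interval -0.37 to 0.52) in H3K27ac and -0.10 (-0.34 to 0.14) in H3K9ac. Against Sen, Res_Ctrl was higher at Mt2 in H3K27ac (0.63 ± 0.18, edgeR adjusted p = 0.0402) and H3K9ac (0.32 ± 0.10, 0.0347), and at Mt1 in H3K9ac (0.40 ± 0.08, 0.00297). The chromosome 8 median of that comparison was 0.60 in H3K27ac and 0.54 in H3K9ac, and with it taken off none of these 3 changes passed and both H3K9ac changes turned negative. The H3K27ac call of Mt2 was also lost when any 1 of the 6 libraries was left out. Its H3K9ac call was lost without Res_Ctrl replicate 1 or 3 or any 1 Sen library (0.26 to 0.36, edgeR adjusted p = 0.0527 to 0.125), with DESeq2 (adjusted p = 0.0528), with missing peaks as 0 tags (edgeR adjusted p = 0.0602) and with the replicate block (0.0567). Res_Ctrl libraries enter the knockdown comparison and both of these, so the results share samples.

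Hmox1, the stress-induced enzyme that breaks down heme, had the largest tested change of the members between resistant and sensitive cells. Its H3K27ac region (chr8:75092026-75094672) had a peak in 3 of 3 Res libraries, with 33.7, 44.0 and 53.8 CPM, and in 0 of 3 Sen libraries. Such gained regions were 5.98% of the 26993 regions with a peak in either group, so Hmox1 was 1 of 1613. A gained region has no p-value of its own. Res libraries held 19811 to 22252 H3K27ac peaks in all, and Sen libraries 2 and 3 held 23348 and 21407. Sen library 1 held 15856, and without it the region had a peak in 0 of 2 Sen libraries. The peak stood well above the calling limit in Res: raising it from a p of 1e-05 to 1e-10 left 3 of 3 Res and 0 of 3 Sen libraries.

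H3K9ac at Hmox1 (chr8:75092651-75094716) was present in both groups and could be tested. It had 30.6, 40.0 and 50.9 CPM in Res libraries, against 16.0, 17.0 and 18.3 CPM in Sen libraries, and the groups did not overlap, as at 61.5% of tested regions. The change was 1.24 ± 0.18 (edgeR adjusted p = 0.000148), a scaled level 2.37 times higher in Res. It was within the largest 2.31% of the 11158 tested regions. The 9 other tested regions within 2.5 Mb had a median change of 0.44. They ran from Nr3c2 at -0.89 to the region of Hmgxb4 and Tom1 at 0.76, 7 rose and 2 fell, and all 9 lay below Hmox1. With the local median taken off the change was 0.81 (edgeR adjusted p = 0.00410), and per called base it was 0.59 (7.83e-05). Called peaks covered 1730 ± 321 bases in Res and 1343 ± 96 bases in Sen (SD, n = 3 each). Unscaled H3K9ac tags at Hmox1 overlapped, with 85, 130 and 176 in Res libraries and 59, 147 and 180 in Sen libraries. The deposited fold ratio also overlapped, at 7.87, 8.08 and 9.49 in Res and 6.38, 10.41 and 14.99 in Sen. With the calling limit raised as for H3K27ac, 3 of 3 Res and 1 of 3 Sen libraries kept the H3K9ac peak. The change could therefore not be tested at that limit.

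In the hairpin groups Hmox1 peaks were uneven. H3K27ac peaks were called in 3 of 3 Res_shFabp7 libraries, with 25.3, 21.2 and 19.2 CPM, and in 2 of 3 Res_Ctrl libraries, with 38.7 and 20.5 CPM. H3K9ac peaks were called in 3 of 3 Res_shFabp7 libraries, with 24.8, 32.7 and 28.4 CPM, and in 1 of 3 Res_Ctrl libraries, with 36.6 CPM. The 2 Res_Ctrl libraries of H3K9ac that lacked the peak held 11771 and 13113 peaks and 2.57 and 3.19 M tags in peaks, both below every Res_shFabp7 and Sen library of the mark. Res library 1, with 12684 peaks and 3.02 M tags, did have the peak. The part of calling depth in the missing Hmox1 peaks was not tested. Since a library without a peak has no deposited tag count, no change at Hmox1 was tested between Res_shFabp7 and Res_Ctrl. Only Res_Ctrl libraries with a called peak have a value, so these 1 or 2 values give no direction against Res_shFabp7.

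Tfrc, the receptor through which most cells take up iron, had fewer scaled tags in Res than in Sen cells. The limits from peak length and from single libraries are given below. The RefSeq promoter window that starts the gene is shown with its metal response match in capitals, on the plus strand.
Tfrc, chr16:32608646-32608945: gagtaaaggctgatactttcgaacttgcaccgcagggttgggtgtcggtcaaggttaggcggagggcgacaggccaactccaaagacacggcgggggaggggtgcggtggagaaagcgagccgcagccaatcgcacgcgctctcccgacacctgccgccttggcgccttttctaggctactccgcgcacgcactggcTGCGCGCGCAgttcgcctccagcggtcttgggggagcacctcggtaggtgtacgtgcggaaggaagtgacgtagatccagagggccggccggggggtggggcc
H3K27ac at Tfrc (chr16:32607394-32611310) was 49.4, 51.4 and 30.5 CPM in Res libraries, against 86.1, 67.1 and 74.8 CPM in Sen libraries. H3K9ac (chr16:32607447-32611036) was 77.1, 75.8 and 65.9 CPM in Res libraries, against 98.2, 102 and 104 CPM in Sen libraries. Every Res library was below every Sen library in both marks, and groups failed to overlap at 47.1% of tested H3K27ac regions and 61.5% of tested H3K9ac regions.

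The change at Tfrc was -0.78 ± 0.20 in H3K27ac (edgeR adjusted p = 0.0189), a level 1.72 times higher in Sen, and -0.48 ± 0.07 in H3K9ac (0.000228). Of all tested regions 30.9% passed in H3K27ac, 13.7% in the lower direction, and 25.0% passed in the lower direction in H3K9ac. The neighbours within 2.5 Mb had median changes of -0.05 and 0.07, and the calls held with those medians taken off (-0.74, edgeR adjusted p = 0.0321, and -0.55, 0.000137). Tfrc peaks were shorter in Res, 2229 ± 583 against 2975 ± 145 bases in Sen for H3K27ac and 2076 ± 194 against 3312 ± 221 bases for H3K9ac. Per called kb the H3K9ac level was 35.5 ± 6.0 CPM in Res and 30.7 ± 1.2 CPM in Sen, the opposite direction to the summed tags. H3K9ac peaks in general were also shorter in Res, with a geometric mean of 2305 to 2510.3 bases against 2626 to 3079 bases in Sen. With lengths set against these means, the change per called base was -0.10 and did not pass (edgeR adjusted p = 0.348). In H3K27ac it did (-0.24, edgeR adjusted p = 0.0322). The H3K27ac call was lost without Sen replicate 3 (-0.79, edgeR adjusted p = 0.0509) and with missing peaks as 0 tags (-0.79, 0.0589).

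In Res_Ctrl cells the marks were compared with both wild-type groups. H3K9ac at Tfrc was 99.3, 87.6 and 93.6 CPM in Res_Ctrl libraries, above every Res library, as 53.1% of tested regions did not overlap (0.36 ± 0.10, edgeR adjusted p = 0.0101), and did not pass against Sen (-0.12, 95% interval -0.27 to 0.02). Per called base the change against Res was 0.12 and did not pass (edgeR adjusted p = 0.254). H3K27ac was 57.4, 47.2 and 56.1 CPM in Res_Ctrl libraries, lower than in Sen (-0.49 ± 0.15, edgeR adjusted p = 0.0475), a call that was lost when any 1 of the 6 libraries was left out. In Res_shFabp7 libraries Tfrc had 66.3, 63.0 and 62.8 CPM of H3K27ac and 93.2, 98.2 and 94.1 CPM of H3K9ac. The changes against Res_Ctrl did not pass, at 0.25 (95% interval -0.02 to 0.52, edgeR adjusted p = 0.292) and 0.03 (-0.13 to 0.19, 0.838).

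**Figure D3:**
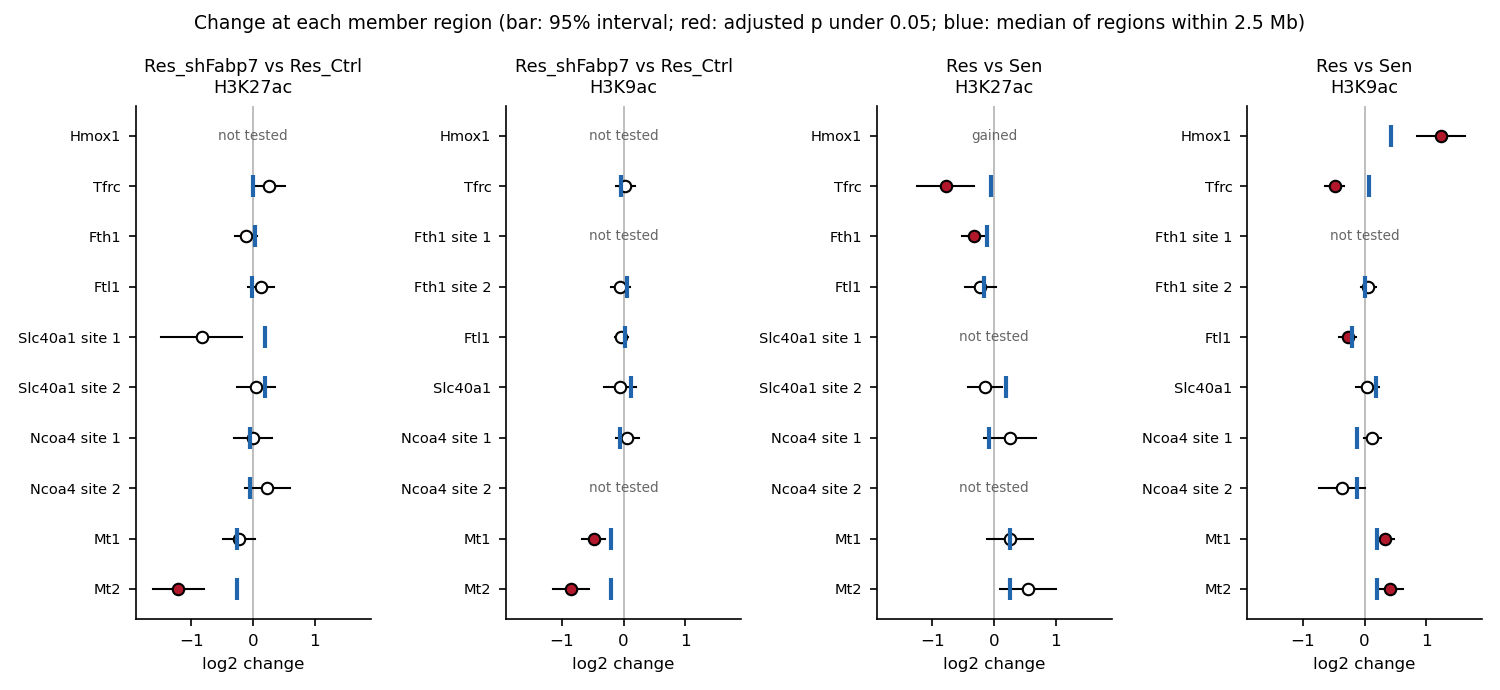
Log2 change with its 95% interval at each member region, Res_shFabp7 over Res_Ctrl in the left pair of panels and Res over Sen in the right pair, for each mark; red points passed at an adjusted p of 0.05, and a blue tick is the median change of the tested regions within 2.5 Mb. Mt2 stands left of its neighbours' median in the knockdown panels, and in the Res over Sen panels Tfrc stands left of its neighbours' median in both marks and Hmox1 right of it in H3K9ac.

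The ferritin genes had a peak in every library of both marks, and their changes were small. Their regions span neighbouring genes, Best1 beside Fth1 and Bax and Gys1 beside Ftl1, and ferritin genes have many processed copies in the genome, so the split of reads between copies is uncertain. The H3K27ac region at Fth1 (chr19:9973899-9984788) joins peaks upstream of the gene with a peak over it, and their tags were summed. The parts were not tested apart. The whole region had 207, 202 and 229 CPM in Res libraries, against 270.5, 266 and 261 CPM in Sen libraries. This was a change of -0.32 ± 0.09 (edgeR adjusted p = 0.0225), with a local median of -0.11, and it did not pass with that median taken off (-0.21, edgeR adjusted p = 0.130). It also did not pass without Res replicate 1 or 2 or without Sen replicate 2 or 3. H3K9ac was read over the Fth1 gene itself (chr19:9981385-9984869), which is only a part of the H3K27ac region. It lay between 113 and 133 CPM in all 12 libraries, and no comparison called it. For Res against Sen the 95% interval of its change was -0.06 to 0.19.

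A separate H3K9ac site upstream of Fth1 (chr19:9976268-9980055) was present in some groups and not in others. It had a peak in 3 of 3 Res_shFabp7 libraries, with 35.3, 46.4 and 39.3 CPM, in 1 of 3 Res_Ctrl libraries, with 29.4 CPM, in 1 of 3 Res libraries, with 31.5 CPM, and in 3 of 3 Sen libraries, with 37.6, 55.1 and 54.5 CPM. With the calling limit at a p of 1e-10 these numbers were 3, 0, 0 and 2 libraries. The site could not be tested. The number of all H3K9ac peaks also differed, with 16529 to 18317 in Res_shFabp7, 11771 to 16217 in Res_Ctrl, 12684 to 13782 in Res and 15615 to 16457 in Sen. The part of calling depth in this pattern was not tested.

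Ftl1 H3K9ac (chr7:45456652-45462751) was 159, 137 and 158 CPM in Res libraries, against 183, 184 and 180.2 CPM in Sen libraries (-0.27 ± 0.06, edgeR adjusted p = 0.00409). In Res_Ctrl libraries it was 189, 189 and 184 CPM, higher than in Res (0.31 ± 0.07, edgeR adjusted p = 0.00380). Regions around it moved alike, with local medians of -0.20 and 0.22, and with these taken off neither change passed (-0.08 and 0.09, edgeR adjusted p = 0.395 and 0.391). In the knockdown comparison Ftl1 had 186, 182 and 180.2 CPM of H3K9ac in Res_shFabp7 libraries, a change of -0.04 (95% interval -0.14 to 0.07).

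**Figure D4:**
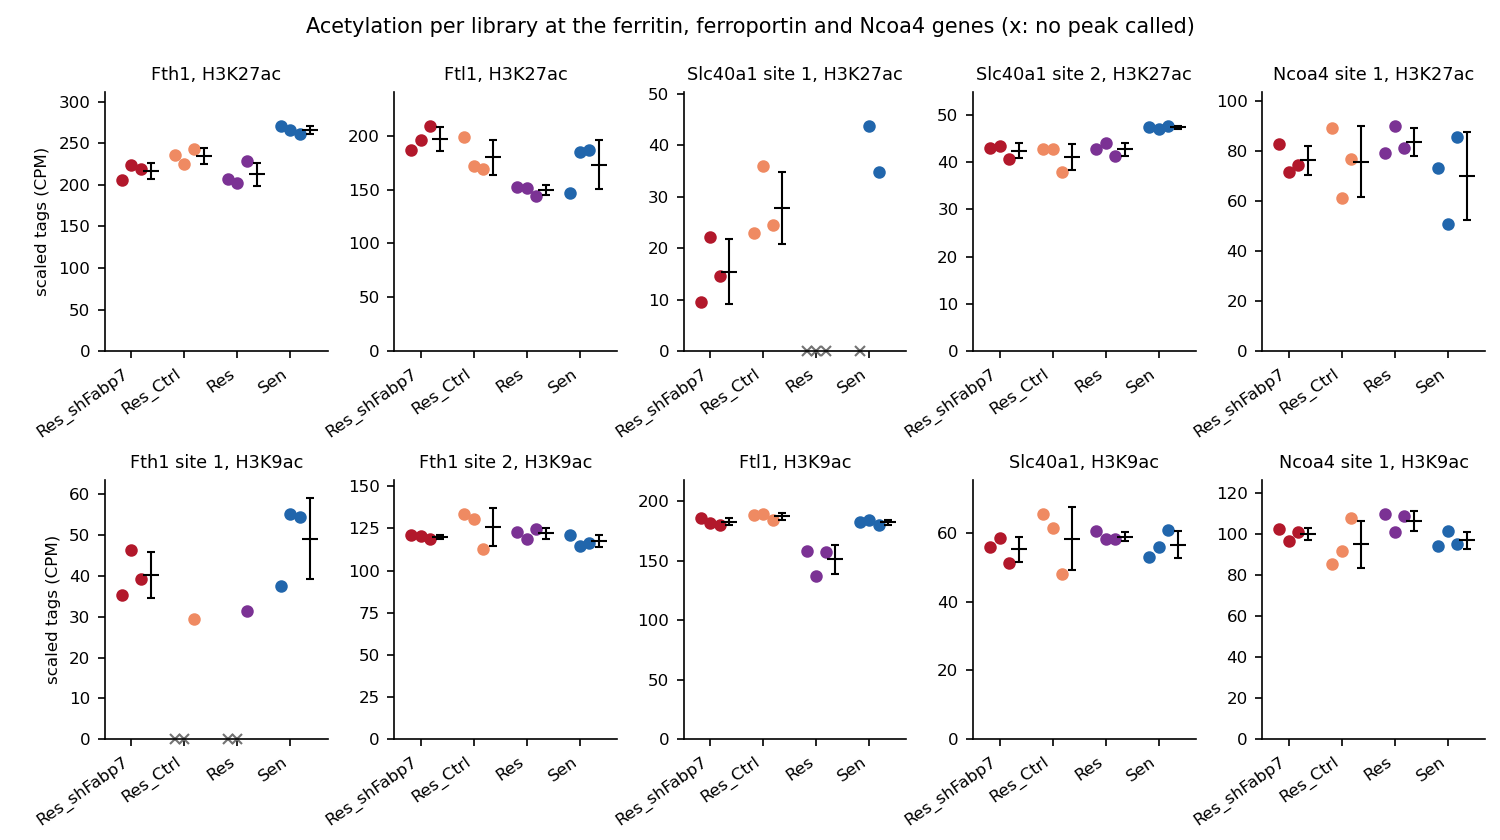
Scaled tags (CPM) in each library at regions of Fth1, Ftl1, Slc40a1 and Ncoa4, H3K27ac above and H3K9ac below, with points, grey x and bars as in the plot of Hmox1, Mt2, Mt1 and Tfrc. Slc40a1 site 1 has no H3K27ac peak in the 3 Res libraries, and Fth1 site 1 has an H3K9ac peak in 1 Res and 1 Res_Ctrl library.

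Slc40a1, the only known iron exporter of mammals, had an even site and an uneven one. Its main site lies at the upper annotated end of the gene (H3K27ac chr1:45924693-45926977, H3K9ac chr1:45924526-45926917). H3K27ac there was 37.9 to 47.6 CPM and H3K9ac 48.1 to 65.5 CPM over all libraries, and no comparison called it in either mark. In the knockdown comparison the 95% interval of the change was -0.26 to 0.35 in H3K27ac and -0.32 to 0.20 in H3K9ac. A second H3K27ac site within the gene (chr1:45919471-45922450) had a peak in 3 of 3 Res_shFabp7 libraries, with 9.50, 22.1 and 14.6 CPM, and in 3 of 3 Res_Ctrl libraries, with 23.0, 35.9 and 24.5 CPM. It had a peak in 0 of 3 Res libraries and in 2 of 3 Sen libraries, with 43.7 and 34.7 CPM. The Sen library without it was replicate 1, the one with the fewest peaks.

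In Res_Ctrl against Res this site was gained, as were 5.56% of regions with a peak in either group. In Res_shFabp7 it was lower than in Res_Ctrl by a change of -0.83 ± 0.30 that did not pass (edgeR adjusted p = 0.160). Deviations from the group mean in same-numbered H3K27ac libraries of the knockdown comparison correlated at 0.12 to 0.36. Those of Res_shFabp7 replicate 2 and Res_Ctrl replicate 3 also did, at 0.16, and nothing in the labels states that equal numbers pair samples. With the replicate number as a block the change at this site was -0.88 and passed (edgeR adjusted p = 0.0312). This made 2 called member regions in place of 1. The block also raised the number of all regions called, to 1426 against 532 without it. Per called base the change was -0.27 and did not pass (edgeR adjusted p = 0.160).

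Ncoa4, which delivers ferritin for breakdown, had no called change at either of its sites on the main scale. Its stronger site (chr14:32158468-32162725 in H3K27ac, shared with Msmb) had 79.1, 89.8 and 81.2 CPM of H3K27ac in Res libraries, against 73.1, 50.8 and 85.5 CPM in Sen libraries, and the groups overlapped. In H3K9ac it had 109.5, 100.7 and 109 CPM in Res libraries, against 93.9, 101 and 95.3 CPM in Sen libraries, a change of 0.13 (95% interval -0.01 to 0.27, edgeR adjusted p = 0.109). It passed once the chromosome median (0.18, edgeR adjusted p = 0.0483) or the local median (0.25, 0.0114) was taken off. In the knockdown comparison the change was 0.0023 (-0.31 to 0.31) in H3K27ac and 0.06 (-0.13 to 0.24) in H3K9ac. Its second site (chr14:32163648-32168395 in H3K27ac) lacked a peak in 1 Sen library of H3K27ac and 1 Res_Ctrl library of H3K9ac. In H3K9ac it had 24.9, 41.6 and 35.9 CPM in Res libraries, against 36.3, 48.6 and 46.0 CPM in Sen libraries, a change of -0.36 ± 0.17 that did not pass (edgeR adjusted p = 0.0930). It passed without Res replicate 2 (-0.53, edgeR adjusted p = 0.0383), without Sen replicate 1 (-0.46, 0.0478) and with the replicate block (-0.36, 0.0334), while per called base it was -0.0044 (0.974).

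Counted over the genes, Res against Sen called 2 of 7 tested member regions in H3K27ac, 0 higher and 2 lower, beside the gain at Hmox1, and 5 of 9 in H3K9ac, 3 higher and 2 lower. Neither share was far from that of all regions, given above, and the median change of the members was -0.15 and 0.06 against -0.0049 and -0.0031 over all tested regions. Res_Ctrl against Res called 0 of 8 in H3K27ac by edgeR (1 at an unadjusted p under 0.05, and 1 by DESeq2), where 37.0% of all regions passed, and 2 of 7 in H3K9ac, both higher, where 43.2% did, 20.9% in the higher direction. Res_Ctrl against Sen called 2 of 7 in each mark, where 16.3% and 33.6% passed. In H3K27ac 1 member region was higher and 1 lower, against 8.22% and 8.10% of all regions, and in H3K9ac both were higher, against 19.1%.

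Per called kb, the order of the 8 genes' main H3K9ac regions was led by Fth1 in every group. In Res_shFabp7 Fth1 had 36.0 ± 1.5 CPM per kb, above every library of Ftl1, the next. Mt2 came last there at 14.4 ± 1.3 CPM per kb, after Hmox1 at 16.7 ± 0.6, and these neighbours did not overlap. In Res and Sen Hmox1 came last, at 23.3 ± 2.0 and 12.7 ± 0.7 CPM per kb, and Mt2 next to last, at 27.1 ± 0.5 and 19.0 ± 1.5. Between these ends, Ftl1, Tfrc, Mt1 and the main site of Ncoa4 overlapped with their neighbours in the order of Res_shFabp7 and of Res. In H3K27ac Mt1 led in Res_shFabp7, Res_Ctrl and Res, at 22.3 ± 2.1, 29.3 ± 1.6 and 27.2 ± 1.5 CPM per kb, but overlapped with Fth1, the next, in Res_shFabp7 and Res_Ctrl.

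Regions most alike in level over the 12 H3K9ac libraries were sought among other genes more than 5 Mb away, by Pearson's r of log2 CPM. The points share 4 groups and the scaling, so r is given as a description. For Tfrc they were Cldn2 (r = 0.96), Me1 (0.96) and Ehf (0.96), for Mt2 Tchh (0.94), Melk (0.93) and Ccn1 (0.93), for Mt1 Edrf1 (0.91), 8030462N17Rik (0.90) and Eif4g3 (0.88), and for Slc40a1 Shisa4 (0.81), Chac2 (0.80) and Slc25a45 (0.80). Mt1 and Mt2 had an r of 0.79 with each other. Hmox1 had a peak in 10 of the 12 libraries, and no r was taken.

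Of the wider pathway, 63 genes in 7 lists were read in the same way, of which 62 were in the annotation. The knockdown changed few of them. In H3K27ac 0 of 46 tested genes were called higher and 1 lower, and in H3K9ac 0 of 47 were called higher and 2 lower. These were shares of 2.17% and 4.26%, against 3.31% and 7.64% of all regions. Ceruloplasmin (Cp), the copper oxidase that loads exported iron onto transferrin, fell in both marks (-0.43 ± 0.08 and -0.53 ± 0.09, edgeR adjusted p = 0.0254 and 0.00316). The heme synthesis gene Alad fell slightly in H3K9ac (-0.23 ± 0.05, edgeR adjusted p = 0.0155), in a region shared with Pole3 and 4933430I17Rik. Of the metal response list 0 of 3 tested genes were called in each mark, Mtf1 among them (H3K9ac -0.08 ± 0.06, edgeR adjusted p = 0.466), and of the regulators of Hmox1 0 of 7 in H3K27ac and 0 of 6 in H3K9ac.

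Between Res and Sen, 7 of 44 tested pathway genes were called higher and 3 lower in H3K27ac, and 10 of 47 higher and 8 lower in H3K9ac. The shares called were 22.7% and 38.3%, below the 30.9% and 54.1% of all tested regions. The largest change was at Alad, which makes porphobilinogen for heme, with 378 ± 24.1 CPM of H3K27ac in Res and 159 ± 11.2 CPM in Sen (1.26 ± 0.09, edgeR adjusted p = 9.16e-05). In H3K9ac it had 541 ± 29.7 CPM in Res and 228 ± 8.5 CPM in Sen (SD, n = 3 each; 1.24 ± 0.06, edgeR adjusted p = 5.02e-08). The local medians there were 0.63 and 0.94, and the region is shared with Pole3 and 4933430I17Rik. Cpox, a later enzyme of heme synthesis, rose too (0.64 ± 0.15 and 0.43 ± 0.09).

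In the iron uptake list, H3K27ac was higher at 3 of 7 tested genes and lower at 0. H3K9ac was higher at 2 of 8 tested genes of this list and lower at 1. Over the whole genome, 2094 of 12151 tested H3K27ac regions were called higher and 1659 lower. The genome-wide shares for H3K9ac were 29.1% higher and 25.0% lower. Whether the list differed from these backgrounds was not tested. The metal transporter Slc39a14 rose in H3K27ac (0.78 ± 0.15, edgeR adjusted p = 0.00478) but not in H3K9ac (0.03 ± 0.09, 0.791), and its relative Slc39a8 rose in H3K9ac (0.78 ± 0.08). Slc11a2, which takes iron out of endosomes, fell in H3K9ac (-0.45 ± 0.08). The heme transporter Slc48a1 fell in both marks, with 33.0 CPM in Res against 77.0 CPM in Sen for H3K27ac (-1.22 ± 0.14) and a change of -0.37 ± 0.09 in H3K9ac. Cp rose in both marks (0.34 ± 0.09 and 0.42 ± 0.06), as did Aco1, an iron sensor (0.40 ± 0.11 and 0.33 ± 0.07, near its local medians of 0.42 and 0.43). Nfe2l2, the gene of the factor NRF2 that drives Hmox1, fell in H3K27ac (-0.40 ± 0.12, edgeR adjusted p = 0.0314), and Bach1, a repressor of Hmox1, did not pass in either mark (0.45 ± 0.17 and 0.03 ± 0.07, edgeR adjusted p = 0.0767 and 0.756). Called changes at Lrp1, Hfe, Pcbp1, Fbxl5, Cisd1, Cisd2, Slc46a1, Mtf1, Slc39a10 and Mafg lay between -0.33 and 0.82.

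The 24 peak lists held 15856 to 28934 H3K27ac peaks and 11771 to 18317 H3K9ac peaks per library, with 2.24 to 11.5 M tags in peaks. No pair of lists was alike, with at most 0.0101% of intervals identical. The epithelial markers Krt8, Krt18, Krt19, Cdh1, Foxa2 and Sftpc had a peak in 12 of 12 libraries of each mark, Epcam in 1 (H3K27ac) and 4 (H3K9ac), and Nkx2-1, Napsa and Cldn4 in none. Summed, these markers had 1271 to 1359 CPM of H3K9ac in Res and 1849 to 1906 CPM in Sen, and 2177 to 2358 CPM of H3K27ac in Res and 2352 to 2644 CPM in Sen, and their part in the results was not tested. Of 9 macrophage markers only Cd68 had any peak, and of 5 other leukocyte markers none had. Fibroblast markers, summed, had 107 to 133 CPM of H3K27ac in Res, against 0 to 36.9 CPM in Sen, with Col1a1 alone at 83.0 against 23.1 CPM on average, Col1a2 peaks in 3 of 3 Res and 0 of 3 Sen libraries, and Pdgfrb and Lum at 0, and their part in the results was not tested. Their H3K27ac sum was 29.8 to 31.3 CPM in Res_shFabp7 and 22.2 to 33.3 CPM in Res_Ctrl. In H3K9ac it was 22.0 to 29.4 CPM in Res_shFabp7 and 0 to 32.5 CPM in Res_Ctrl, with a Col1a1 peak in 3 and 1 libraries. The endothelial marker Cdh5 had 246 to 286 CPM of H3K27ac in Res_shFabp7, 292 to 325 CPM in Res_Ctrl, 38.5 to 42.3 CPM in Res and 0 to 114 CPM in Sen, with the other 3 endothelial markers at 0, and its part was not tested.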

How the data were processed

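H3K27ac and H3K9ac were profiled in 24 libraries, 3 biological replicates for each of 4 groups, and the 4 inputs were left out. Fixation took 10 minutes in 1% formaldehyde and single reads had 50 bases, 53 to 158 M per sample, per the labels' protocols. Bowtie 1.1.2, MACS 1.4.2 and mm10 are named in the submitters' processing notes. Each deposited list holds the peaks of 1 library, with a tag count per peak, a score (PVALUE, which rises as p falls, lowest value 50) and a fold ratio; whether the input served as the caller's control is not given in the sources used here. The total reads behind each list are unknown, and tags in peaks ran from 2.24 to 11.5 M.

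Overlapping peaks of the 12 lists of a mark were merged, and tags of a library's peaks in a region were summed. TMM factors and library sizes came from the 11679 (H3K27ac) and 10149 (H3K9ac) regions with a peak in all 12 libraries. Regions with a peak in all 6 libraries of a comparison were tested with edgeR 4.0.16 (quasi-likelihood, R 4.3.3), p-values were adjusted over all of them by Benjamini-Hochberg, and 0.05 was the threshold. Longer peaks hold more tags, and a lower level can lose its peak and so leave the test. The script was tested on simulated data. DESeq2 1.42.0, other scalings, filters, overlaps, gene windows, tags per called base (called length relative to the library's geometric mean over the common regions) and leaving out each library were alternatives. Nothing in the labels states that equal replicate numbers pair samples. Only in Res_shFabp7 against Res_Ctrl for H3K27ac did every same-numbered pair deviate together with an r above 0.1 (0.12 to 0.36). There Res_shFabp7 replicate 2 and Res_Ctrl replicate 3 also had 0.16. In Res_Ctrl against Res for H3K27ac same-numbered pairs had 0.07 to 0.35, so pairing is not established. Named genes were all members, and per pathway list and direction the 2 called genes with the largest change. The members and lists were chosen with earlier results of these data known. The hairpin acts on the Fabp7 transcript, so peaks at that gene check nothing.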

Additional observations from a re-analysis of the deposited data

How the results depend on the processing

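Of the changes of single member regions outside the libraries left out in turn, 373 values kept their direction and their side of the threshold, 34 lost their call, 6 gained one and 23 changed sign. With 1 library left out these numbers were 194, 23, 5 and 6. The 29 sign changes are given here, and the cause of none was tested unless stated.

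Counts of member regions called are given against 1 (H3K27ac) and 2 (H3K9ac) for Res_shFabp7 against Res_Ctrl, 2 and 5 for Res against Sen, 0 and 2 for Res_Ctrl against Res, and 2 and 2 for Res_Ctrl against Sen. For Res_Ctrl against Res in H3K27ac the count was 1 with DESeq2, size factors of the relative log expression method, TMM over the regions of the 6 libraries, a mean of at least 200 tags, an overlap of at least 200 bases or the replicate block, and 2 with missing peaks set to 0 tags. For Res_Ctrl against Sen in H3K27ac it was 1 under these same settings and with all 12 libraries in 1 fit, except 0 with missing peaks as 0 tags, and 0 with the calling limit at 1e-10 or either median removed. In H3K9ac it was 1 with DESeq2, missing peaks as 0 tags, the limit at 1e-10 or the replicate block, and 0 with either median removed. For Res against Sen either median or tags per called base left 1 in H3K27ac and 3 in H3K9ac. For Res_Ctrl against Res tags per called base left 1 in H3K9ac. For Res_shFabp7 against Res_Ctrl a mean of at least 200 tags or the limit at 1e-10 left 0 in H3K27ac and 1 in H3K9ac, both of which test fewer regions, and either median left 1 in H3K9ac.

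Over all regions, Res_shFabp7 against Res_Ctrl in H3K27ac had 532 calls, against 952 with DESeq2, 174 with all 12 libraries in 1 fit, 326 with the limit at 1e-10, 1290 per called base and 1712 with missing peaks as 0 tags. With the chromosome or local median removed it had 315 or 241. In H3K9ac it had 849, against 1507 with missing peaks as 0 tags and 516 or 508 with a median removed. With the chromosome or local median removed, Res against Sen had 3870 or 3845 in H3K9ac and, locally, 2454 in H3K27ac. Res_Ctrl against Res had 2796 or 2730 in H3K9ac. Res_Ctrl against Sen had 857 or 813 in H3K27ac and 2060 or 2127 in H3K9ac.

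The split into higher and lower calls also moved. Res_Ctrl against Res in H3K27ac had 2170 higher and 2892 lower, against 1953 and 1660 with the chromosome median and 1894 and 1552 with the local median removed. Res_shFabp7 against Res_Ctrl in H3K27ac had 177 and 355, against 219 and 1071 per called base and 1316 and 396 with missing peaks as 0 tags. In H3K9ac it had 271 and 578, against 1102 and 405 with missing peaks as 0 tags. With missing peaks as 0 tags, Res against Sen in H3K9ac had 3387 and 4603 in place of 3244 and 2789, and Res_Ctrl against Sen 1746 and 2040 in place of 2088 and 1597.

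With the chromosome median removed, the sign turned for Res against Sen at Mt1 (-0.072, H3K27ac) and Slc40a1 (-0.13, H3K9ac), for Res_shFabp7 against Res_Ctrl in H3K27ac at Slc40a1 site 2 (-0.0252) and Ncoa4 site 1 (-0.0254), and for Res_Ctrl against Sen in H3K9ac at Mt1 (-0.15) and Mt2 (-0.22). With the local median removed it turned at Slc40a1 for Res against Sen (-0.14, H3K9ac), at Slc40a1 site 2 (-0.15) and Mt1 (0.0337) for Res_shFabp7 against Res_Ctrl in H3K27ac, and at Mt1 (-0.12) and Mt2 (-0.20) for Res_Ctrl against Sen in H3K9ac. Per called base it turned for Res against Sen at Ncoa4 site 1 (-0.0577, H3K27ac) and Slc40a1 (-0.13, H3K9ac). Per called base it also turned for Res_shFabp7 against Res_Ctrl, in H3K27ac at Fth1 (0.0136), Ftl1 (-0.0057), Ncoa4 site 1 (-0.0703) and site 2 (-0.22), and in H3K9ac at Tfrc (-0.0189), Fth1 site 2 (0.0146), Ftl1 (0.0605), Slc40a1 (0.12) and Ncoa4 site 1 (-0.0137). With the limit at 1e-10 it turned at Ncoa4 site 1 (-0.0063) in H3K27ac of that comparison.

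With libraries left out in turn, Res_shFabp7 against Res_Ctrl had 70.0 to 734 calls over all regions in H3K27ac and 320.0 to 1080.0 in H3K9ac, and 0 to 1 member regions in H3K27ac. Res against Sen in H3K27ac had 2494 to 5217 over all regions and 0 to 4 member regions, and without Sen replicate 1 Ftl1 (-0.32) and Mt1 (0.44) were called. Res_Ctrl against Sen had 1009 to 3176 over all regions in H3K27ac, 0 to 0 member regions in H3K27ac and 1 to 2 in H3K9ac. In the knockdown comparison the sign turned in H3K27ac at Ncoa4 site 1 (-0.13 to 0.14, below 0 without Res_Ctrl replicate 2 or Res_shFabp7 replicate 1) and Slc40a1 site 2 (-0.0113 to 0.0762, without Res_Ctrl replicate 3). In H3K9ac it turned at Tfrc (-0.0111 to 0.069, without Res_Ctrl replicate 2), and without Res_Ctrl replicate 1 at Slc40a1 (-0.20 to 0.0294) and Ncoa4 site 1 (-0.00907 to 0.17).

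With the replicate number as a block, Res_shFabp7 against Res_Ctrl in H3K27ac had 2 member regions and 1426 regions in all called. In the other comparisons same-numbered libraries had correlations of -0.05 to 0.35. There the block gave 1 member region for Res_Ctrl against Res in H3K27ac and 1 each for Res_Ctrl against Sen in H3K27ac and H3K9ac. The lists hold no tags where no peak was called, which limits every statement on Hmox1 and on the uneven sites of Fth1, Slc40a1 and Ncoa4.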
